A study of Mus musculus with 12 samples.

Results

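The expression of 10 genes that sense cytosolic DNA or clear nucleic acids was followed in CT26, a mouse colorectal cancer line, with and without midostaurin. The genes were chosen by name, with earlier results of these data known, and all 10 were found among the 55335 genes counted: Trex1, Tmem173, Cgas, Tbk1, Irf3, Samhd1, Rnaseh2a, Rnaseh2b, Rnaseh2c and Enpp1. RNA-seq libraries fell into 4 groups of 3. Wild-type CT26 cells were cultured with the solvent DMSO or with 1 µM midostaurin for 48 h. Subcutaneous CT26 tumors came from mice given vehicle or 40 mg/kg midostaurin, begun on day 7 after inoculation and kept up for 2 weeks. Midostaurin is a kinase inhibitor whose targets include protein kinase C, KIT and FLT3. Mouse strain and age, a genotype for the tumors and the origin of the libraries from separate or pooled cultures or animals are not given in the sources used here, so each p-value reflects the spread of the libraries alone, which may be technical.

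In this pathway the enzyme cGAS (Cgas) binds double-stranded DNA in the cytosol and makes the messenger cGAMP. STING (Tmem173) binds cGAMP and recruits the kinase TBK1, which phosphorylates the transcription factor IRF3, and interferon genes are transcribed. ENPP1, an ectoenzyme, breaks down cGAMP outside the cell. The other 5 genes keep nucleic acid ligands low: TREX1 is a DNA exonuclease, SAMHD1 a dNTP hydrolase, and RNASEH2A (catalytic), RNASEH2B and RNASEH2C form RNase H2, which cleaves RNA in RNA-DNA hybrids and removes ribonucleotides from DNA. Inherited loss of TREX1, SAMHD1 or an RNase H2 subunit causes Aicardi-Goutières syndrome, a disease with excess interferon.

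Sequences are shown at 3 of the genes: that of Trex1 because reads from it can come from a second gene, and those upstream of Cgas and Enpp1 to show the letters before the start of the sensor gene and of the gene with 0 counts in culture; no measurement here bears on the upstream letters. The Trex1 sequence is the start of its coding region (chr9:109058892-109058921, minus strand, mm10), with the start codon in capitals. The same letters lie in 3 of the 9 annotated Atrip transcripts, the gene that encodes the ATR partner ATRIP, so a read from them does not tell the genes apart. The Cgas sequence is the 250 bases before its start (chr9:78443238-78443487, minus strand, RefSeq, GRCm38.p6), with 2 matches to an E2F-like motif in capitals. The Enpp1 sequence is the 250 bases before the start of the gene that had 0 counts in culture and was measured in every tumor (chr10:24712160-24712409, minus strand, RefSeq, GRCm38.p6). None of the bases of the Cgas and Enpp1 windows lies in an annotated exon.
Trex1 coding start: ATGggctcacagaccctgccccatggtcac
Cgas upstream: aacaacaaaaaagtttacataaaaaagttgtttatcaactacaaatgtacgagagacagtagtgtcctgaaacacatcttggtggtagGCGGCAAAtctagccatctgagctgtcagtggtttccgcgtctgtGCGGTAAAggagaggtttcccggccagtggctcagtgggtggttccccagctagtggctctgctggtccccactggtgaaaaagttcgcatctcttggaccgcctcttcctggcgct
Enpp1 upstream: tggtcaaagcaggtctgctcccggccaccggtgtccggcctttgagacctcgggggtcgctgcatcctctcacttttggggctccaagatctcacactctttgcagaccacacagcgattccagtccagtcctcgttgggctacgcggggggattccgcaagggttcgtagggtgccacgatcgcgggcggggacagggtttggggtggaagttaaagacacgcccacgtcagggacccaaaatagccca

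RefSeq promoter entries were matched for 8 of the 10 genes, and none was matched for Tmem173 or Rnaseh2b. Both strands of the 250 upstream bases were searched for 4 motifs. The E2F letters TTTNNCGC were found in 1 of the 8 genes, Cgas, at bases -162 to -155 and -117 to -110 from the start (GCGGCAAA and GCGGTAAA, the motif read on the other strand), and in 4.28% of all 32851 windows. The interferon-stimulated response element, searched as GAAA, any 2 bases and GAAA (present in 2.98% of windows), and the NF-kB motif, searched as GGG, any 2 bases and TTTCC (present in 1.41%), matched 0 of the 8 genes. The STAT letters TTCNNNGAA, present in 7.02% of windows, matched Samhd1 (TTCGGAGAA, bases -235 to -227). These are descriptions of letters within 1 window per start. GC content was 61.2% in the Enpp1 window, which held 17 CpG dinucleotides, against a median of 52.4% over all windows.

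Trex1 (ENSMUSG00000049734, mm10 chromosome 9, 109057933 to 109059734, minus strand) is the gene whose count is hardest to read. All 1147 bp of its exons lie inside exons of Atrip, on the same strand. These exons belong to Atrip-204, annotated for nonsense-mediated decay, Atrip-205, annotated with a retained intron, and in part the coding Atrip-202. The coding transcripts Atrip-201 and Atrip-208 end before the first Trex1 start. Of the 50-base stretches of the longer Trex1 transcript (1084 bases), 989 of 1035 (95.6%) also occur in an Atrip transcript, and of those of the shorter one (1054 bases) all 1005 (100%) do. The splice junction of the longer transcript is absent from Atrip, and that of the shorter one is shared with it. The deposited counts come from RSEM, which divides such reads between the genes by an estimate.

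**Figure D1:**
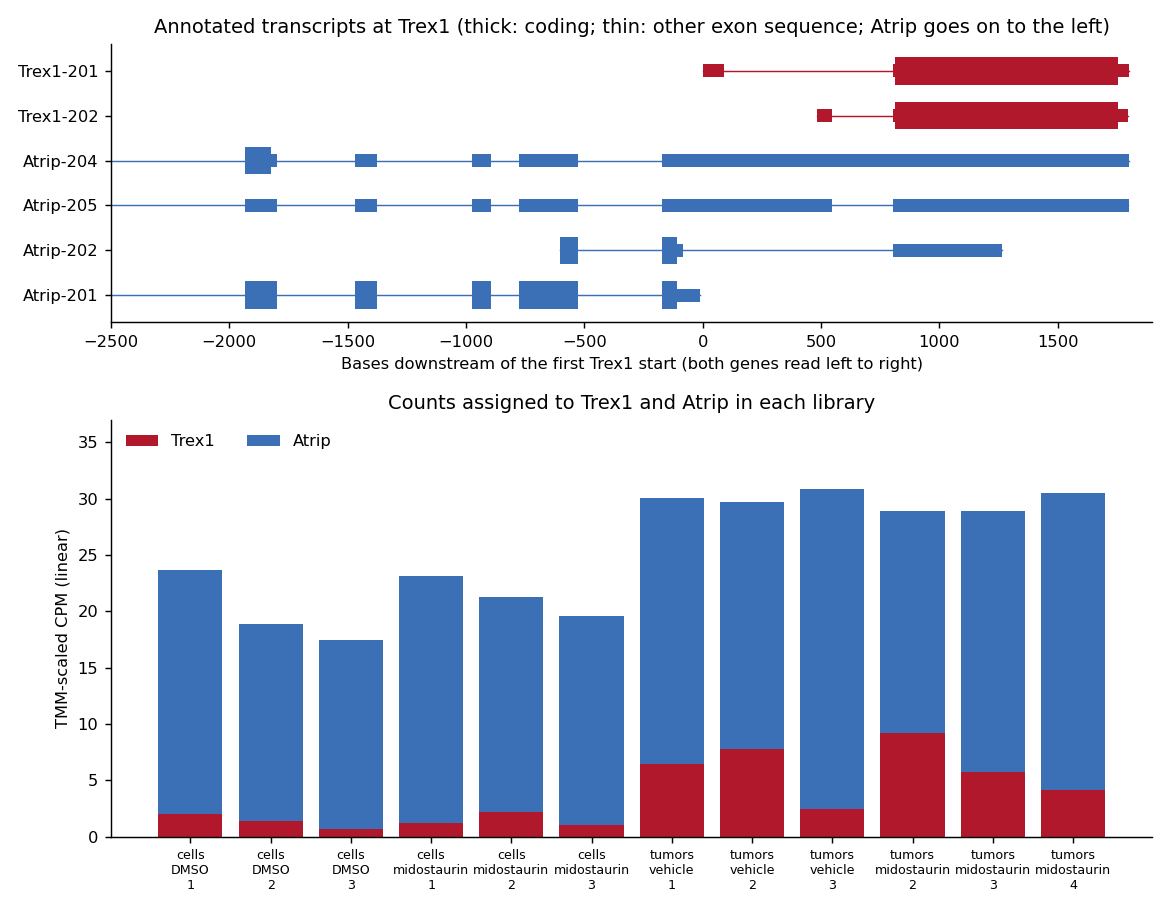
Upper panel: annotated exons of Trex1 and of 4 Atrip transcripts by distance in bases from the first Trex1 start, with coding parts thick. Lower panel: TMM-scaled CPM (linear axis) assigned to Trex1 and Atrip in each of the 12 libraries, stacked; in the 6 tumors the stacks stand between 28.9 and 30.8 CPM while the Trex1 part runs from 2.47 to 9.23 CPM.

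Levels are given as CPM, the count of a gene relative to its library's total after TMM scaling. Trex1 measured 2.00, 1.41 and 0.683 CPM in the DMSO cells (79, 52 and 24 counts) and 1.24, 2.19 and 0.995 CPM in the midostaurin cells. It measured 6.46, 7.80 and 2.47 CPM in the vehicle tumors and 9.23, 5.74 and 4.16 CPM in the midostaurin tumors. All 6 tumors lay above all 6 cell libraries, and within each setting the treated and control libraries overlapped. Atrip measured 18.6 ± 2.68, 19.9 ± 1.78, 24.6 ± 3.36 and 23.0 ± 3.34 CPM in the same 4 groups (mean ± SD, n = 3 each).

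In the tumors the levels of Trex1 and Atrip varied against each other. Vehicle tumor 3 had the lowest Trex1 level of the tumors and the highest Atrip level, 28.4 CPM, and midostaurin tumor 2 had the highest Trex1 level and the lowest Atrip level, 19.6 CPM. Trex1 differed 3.73-fold between the highest and the lowest tumor, while the sum of both genes lay between 28.9 and 30.8 CPM. In vehicle tumors the coefficient of variation was 49.6% for Trex1, 13.7% for Atrip and 1.97% for their sum. In midostaurin tumors it was 40.6%, 14.5% and 3.11%. The share of the sum assigned to Trex1 was 6.62 ± 2.38% in DMSO cells, 6.90 ± 2.92% in midostaurin cells, 18.6 ± 9.47% in vehicle tumors and 21.8 ± 9.31% in midostaurin tumors (n = 3 each). The part of the RSEM division in the spread of Trex1 was not tested.

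The levels of the 10 genes are compared with each other per kilobase of exon (CPM per kb), since a longer gene collects more reads. In DMSO cells the order was Tbk1 (19.4 CPM per kb), Tmem173 (16.6), Irf3 (14.2), Samhd1 (13.2), Rnaseh2a (11.4), Rnaseh2c (9.17), Cgas (4.23), Rnaseh2b (1.33), Trex1 (1.19) and Enpp1 (0). Neighbours whose libraries overlapped there were Tbk1 and Tmem173, each pair from Irf3 down to Rnaseh2c, and Rnaseh2b and Trex1. In vehicle tumors Samhd1 came first (23.0), followed by Tmem173 (18.6), Irf3 (18.1), Rnaseh2a (16.9), Tbk1 (13.05), Rnaseh2c (8.49), Cgas (6.15), Trex1 (4.86), Rnaseh2b (3.06) and Enpp1 (0.455). In that order Tmem173 and Irf3, Irf3 and Rnaseh2a, Cgas and Trex1, and Trex1 and Rnaseh2b overlapped. The STING and TBK1 genes thus stood above the gene of the sensor cGAS in cultured CT26 cells, and the latter's highest DMSO library lay below the lowest of Rnaseh2c.

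**Figure D2:**
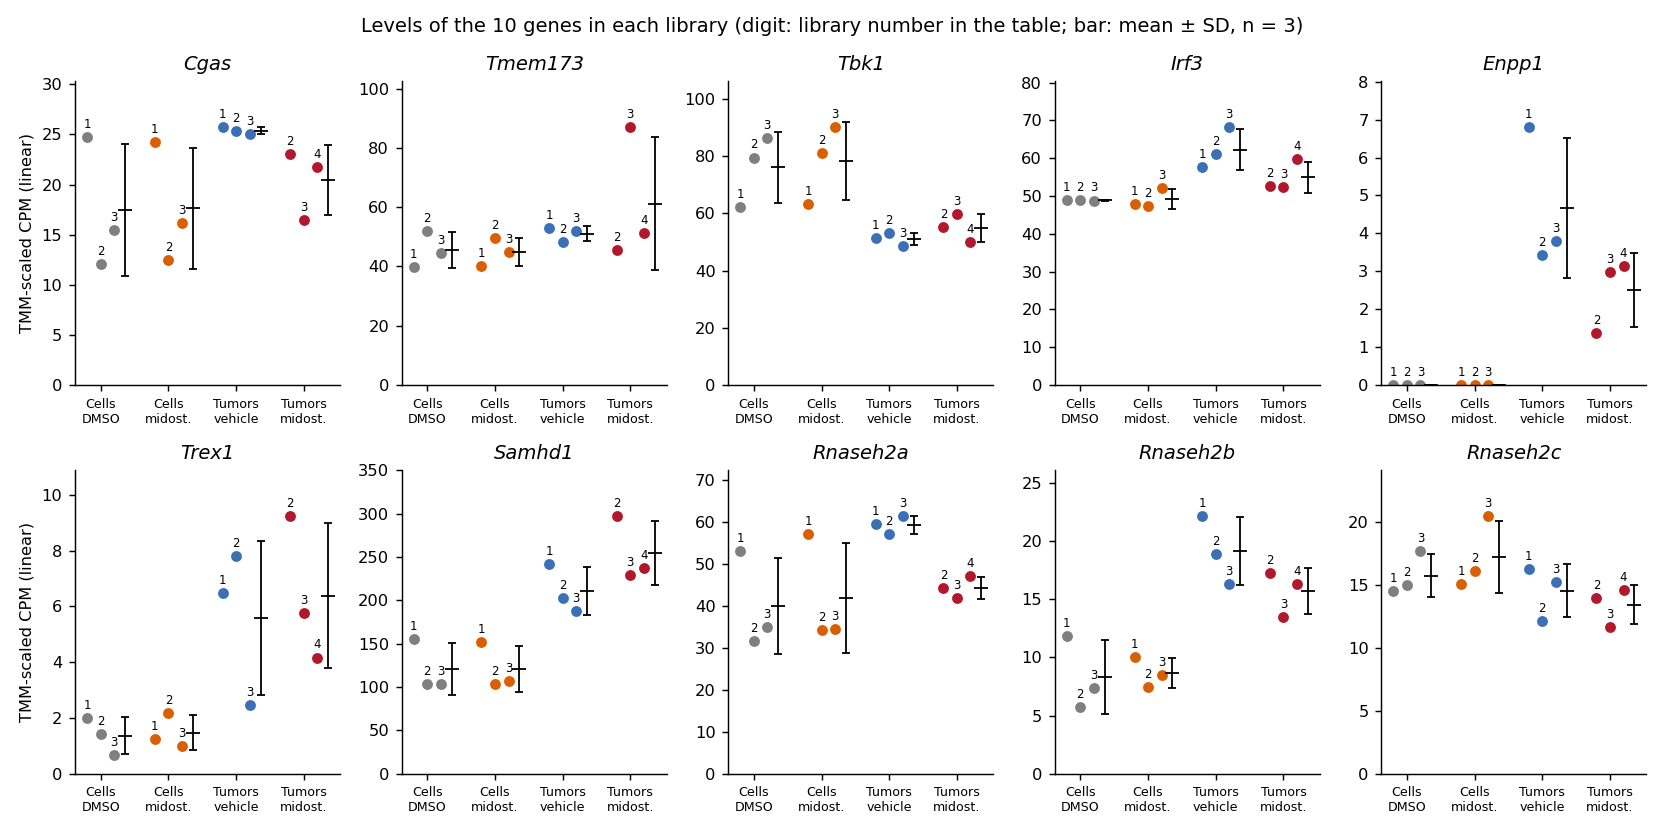
TMM-scaled CPM (linear axes, each gene on its own scale) of the 10 genes in the 12 libraries, with the library number beside each point and the mean ± SD (n = 3) to its right. Cell libraries numbered 1 stand apart in both treatments for Cgas, Tbk1, Samhd1 and Rnaseh2a, and Enpp1 is at 0 in all 6 cell libraries.

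The cell libraries numbered 1 differed from those numbered 2 and 3 in both treatments, and the labels do not say what the number marks. Cgas measured 24.8 (DMSO) and 24.3 CPM (midostaurin) in the libraries numbered 1 and 12.1 to 16.2 CPM in the other 4. Samhd1 measured 155.0 and 151.9 CPM against 103.4 to 106.9 CPM, Rnaseh2a 53.2 and 57.1 CPM against 31.8 to 35.1 CPM, and Rnaseh2b 11.8 and 10.0 CPM against 5.74 to 8.46 CPM. Tbk1, at 62.3 and 63.4 CPM against 79.5 to 90.0 CPM, and Tmem173, at 39.9 and 40.1 CPM against 44.7 to 52.0 CPM, were lower in number 1. These 6 of the 9 genes expressed in cells did not overlap between number 1 and the others, and neither did 65.1% of all 14538 genes tested in cells, so the share is near that of all genes. Over all genes 33.1% were higher in number 1 without overlap and 32.0% lower. In the lists of related genes described below, those counts were 8 higher and 2 lower of 11 genes known to be induced downstream of STING (Oasl1 at 65.6 CPM in DMSO library 1 against 6.63 and 7.31 CPM; Il6 and Nfkbia lower), and 7 and 0 of 8 proliferation genes. They were 7 and 1 of 10 RNA sensor and TLR genes, 9 and 7 of 21 STING and TBK1 partners, 8 and 7 of 19 other nucleases, 3 and 3 of 7 interferon receptor genes, and 2 and 5 of 9 cGAMP-handling genes.

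Tumors can hold host cells as well as CT26 cells, and markers of other cell types were measured beside the 10 genes. The summed level of 9 macrophage markers was 5.01 to 25.6 CPM in DMSO cells, where Adgre1, C1qa, C1qb and C1qc had 0 counts, and 929.4 to 1325 CPM in vehicle tumors. T cell markers (6 genes) summed to 0 to 0.171 CPM and 18.1 to 29.3 CPM, and endothelial markers (5 genes) to 0.101 to 0.655 CPM and 57.2 to 114.9 CPM. Pericyte markers (4 genes) summed to 17.5 to 41.0 CPM and 60.2 to 85.4 CPM. Fibroblast markers (5 genes) overlapped in their sum, at 318 to 596 CPM in DMSO cells and 232.3 to 1175 CPM in vehicle tumors. Its members differed: Pdpn averaged 312.8 CPM in DMSO cells and 47.4 CPM in vehicle tumors, and Pdgfra 27.6 and 27.9 CPM. Col1a1 averaged 111.5 and 447.5 CPM, Dcn 11.4 and 76.4 CPM, and Lum 0.0647 and 5.69 CPM. Of the 8 epithelial markers, Krt19 and Epcam had 0 counts in every cell library, while Krt18 measured 24.0 to 26.9 CPM and Krt20 10.5 to 52.8 CPM in DMSO cells. In such bulk samples fewer cells of a type and less RNA per cell cannot be told apart. The tumors and the cells also stand in separate count tables, so growth setting, table and RNA source cannot be told apart.

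Vehicle tumors were compared with DMSO cells to ask how the pathway's levels differ between a tumor and the cultured line. Of the 10 genes, 5 were higher in tumors, 1 was lower and 4 did not pass the test (edgeR quasi-likelihood F-test, Benjamini-Hochberg adjusted p under 0.05 over all genes). Enpp1 is among the 5, and with 0 counts in cells it passed the count filter through the tumors alone. Among all 16965 genes tested 44.2% passed, 24.5% higher and 19.7% lower, so the 6 of 10 stand against a wide background of change. DESeq2 called 7 of the 10, and 40.1% of all genes. The groups did not overlap for 8 of the 10, and for 54.8% of all genes. The median log2 fold change was 0.56 for the 10 genes and 0.04 for all genes tested, and Enpp1 is the highest of the 10 whether its fitted value or its lower bound is taken.

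Of the sensing arm, Irf3 (ENSMUSG00000003184, chromosome 7, 44997648 to 45002848) measured 48.8, 49.0 and 48.8 CPM in DMSO cells and 57.6, 61.0 and 68.2 CPM in vehicle tumors. The groups did not overlap, and the log2 fold change was 0.35 ± 0.09 (SE, edgeR adjusted p = 0.00855). Tbk1 (ENSMUSG00000020115, chromosome 10, 121546455 to 121586787) measured 62.3, 79.5 and 86.2 CPM in cells and 51.4, 53.0 and 48.7 CPM in tumors. It was the gene that was lower in tumors, by -0.57 ± 0.15 on the log2 scale (adjusted p = 0.00974). Tmem173 (ENSMUSG00000024349, chromosome 18, 35733679 to 35740554) measured 39.9, 52.0 and 44.7 CPM in cells and 52.9, 48.3 and 52.0 CPM in tumors. Its groups overlapped, with a log2 difference of 0.17 (95% interval -0.30 to 0.63, adjusted p = 0.552).

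Cgas (ENSMUSG00000032344, chromosome 9, 78430526 to 78443237) measured 24.8, 12.1 and 15.5 CPM in DMSO cells and 25.7, 25.4 and 25.1 CPM in vehicle tumors. Its DMSO library 1 lay within 1 CPM of the tumors, and the other DMSO libraries lay well below them. The log2 difference of 0.54 ± 0.28 did not pass (adjusted p = 0.144), and without both cell libraries numbered 1 it was 0.89 (adjusted p = 0.00302).

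Enpp1 (ENSMUSG00000037370, chromosome 10, 24637914 to 24712159) was the gene of the 10 that was not detected in culture. It had 0 counts in all 6 cell libraries, where 3 counts would be 0.0759 to 0.0854 CPM, and 268, 127 and 164 counts (6.79, 3.43 and 3.79 CPM) in the vehicle tumors. Against a floor of 3 counts in each DMSO library it was at least 57.7-fold higher in vehicle tumors. Against the same floor in midostaurin cells it was at least 31.0-fold higher in midostaurin tumors. Enpp1 entered the edgeR test through the tumors alone, so its call there adds nothing to these counts and its p is not given. Macrophage, T cell and endothelial markers differ between DMSO cells and vehicle tumors as given above, and their part in the Enpp1 level was not tested.

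Of the clearance enzymes, Trex1 was higher in vehicle tumors by 2.03 ± 0.53 on the log2 scale (95% interval 0.85 to 3.20, adjusted p = 0.0106). With the counts of Trex1 and Atrip summed the difference was 0.60 (adjusted p = 0.00248), and Atrip by itself differed by 0.40 ± 0.15 (adjusted p = 0.0531). Trex1 and Atrip had shares of the sum in tumors and cells as given above. Samhd1 (ENSMUSG00000027639, chromosome 2, 157097533 to 157135265) measured 155.0, 103.8 and 103.4 CPM in DMSO cells and 241.9, 202.8 and 187.9 CPM in vehicle tumors. Its groups did not overlap, and it was higher in tumors by 0.81 ± 0.20 (adjusted p = 0.00845).

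Of the RNase H2 subunits, 1 of 3 passed the test. Rnaseh2b (ENSMUSG00000021932, chromosome 14, 62292589 to 62372992) measured 11.8, 5.74 and 7.37 CPM in cells and 22.1, 18.9 and 16.3 CPM in tumors, and was higher by 1.20 ± 0.25 (adjusted p = 0.00303). The catalytic subunit gene Rnaseh2a (ENSMUSG00000052926, chromosome 8, 84956610 to 84969767) measured 53.2, 31.8 and 35.1 CPM in cells and 59.6, 57.1 and 61.5 CPM in tumors. It did not pass at 0.57 ± 0.22 (adjusted p = 0.0591, and 0.0305 by DESeq2), while without both cell libraries numbered 1 it was 0.84 (adjusted p = 6.39e-05). Rnaseh2c (ENSMUSG00000024925, chromosome 19, 5601873 to 5607019) measured 14.5, 15.01 and 17.7 CPM in cells and 16.3, 12.2 and 15.3 CPM in tumors, with overlapping groups (-0.11 ± 0.16, adjusted p = 0.611). The differences between the subunits were not tested. Of the exons of Rnaseh2c, 24.8% overlap Kat5 on the other strand, and the strand setting of the counting is not given.

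**Figure D3:**
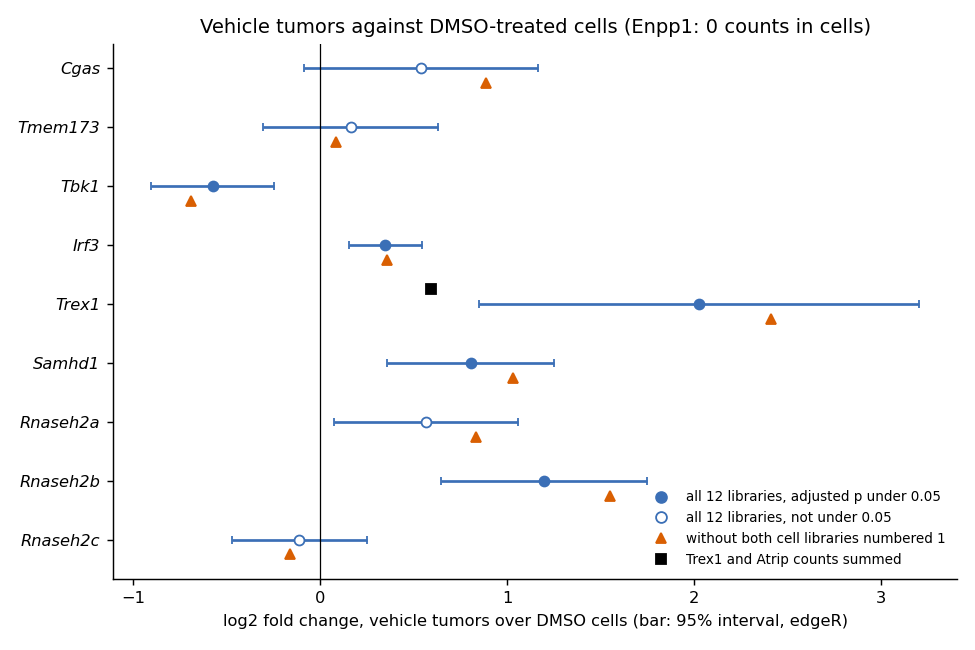
Log2 fold change of 9 of the genes in vehicle tumors over DMSO cells (circles, with 95% intervals from edgeR; filled where the adjusted p was under 0.05). Triangles leave out both cell libraries numbered 1, and the square sums Trex1 with Atrip, at 0.60 in place of 2.03.

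In cultured cells the question was whether midostaurin changes the pathway in the cancer cells themselves. Of the 9 genes with enough counts to test, 0 passed (edgeR, adjusted p under 0.05), as did 0% of all 14538 genes. DESeq2 called 0 of the 9 genes too, and 0.00791% of all genes, and 0 of the 9 had an unadjusted p under 0.05 in edgeR, against 0.516% of all genes. For all 9 genes the midostaurin and DMSO libraries overlapped, where 2.46% of all genes did not. The log2 fold changes ran from -0.02 for Tmem173 to 0.13 for Rnaseh2c, with a median of 0.04 against 0.00 for all genes tested.

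Tmem173 measured 40.1, 49.4 and 45.0 CPM in the midostaurin cells, against 39.9, 52.0 and 44.7 CPM with DMSO. Each treated library lay nearest to the DMSO library of its own number. Irf3 measured 48.0, 47.4 and 52.1 CPM with midostaurin, Tbk1 63.4, 81.2 and 90.0 CPM, and Cgas 24.3, 12.5 and 16.2 CPM. Samhd1 measured 151.9, 103.5 and 106.9 CPM, a log2 fold change of 0.00 (95% interval -0.56 to 0.56). Rnaseh2a measured 57.1, 34.2 and 34.5 CPM, Rnaseh2b 10.0, 7.49 and 8.46 CPM, and Rnaseh2c 15.1, 16.1 and 20.5 CPM. For 6 of the 9 genes the libraries numbered 1 lay apart in both treatments, as given above, and for Trex1, Irf3 and Rnaseh2c they did not. With the number as a block 0 of the 9 were called (0.0550% of all genes) and the 95% intervals narrowed, to -0.07 to 0.08 for Samhd1, -0.13 to 0.18 for Cgas and -0.12 to 0.08 for Tmem173. For Trex1, with 24 to 80 counts per library, the interval with the block ran from -0.56 to 0.83, and its division of reads with Atrip was as given above.

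**Figure D4:**
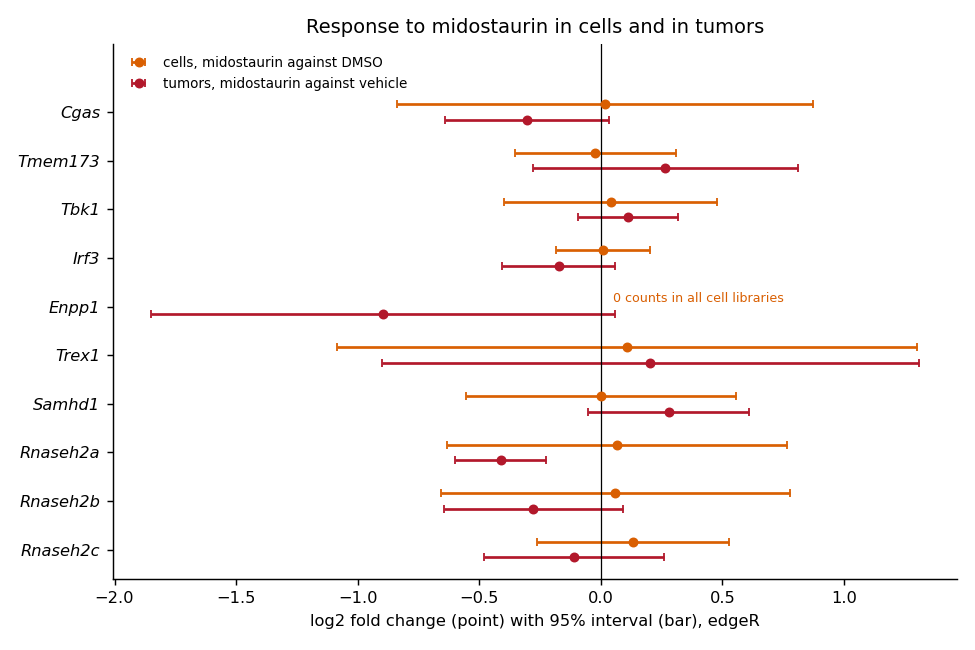
Log2 fold change with midostaurin (points) and 95% intervals (bars, edgeR without a block) in cells and in tumors. The intervals of all 9 genes tested in cells span 0, and in tumors that of Rnaseh2a, at -0.60 to -0.22, lies below 0 before adjustment over all genes.

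In tumors 0 of the 10 genes passed the test with edgeR, where 7 of 16094 genes (0.0435%) did. With DESeq2 1 of the 10 was called, Rnaseh2a, against 8.31% of the genes it tested. In edgeR 1 of the 10, again Rnaseh2a, had an unadjusted p under 0.05, against 19.9% of all genes. The groups did not overlap for 3 of the 10, Rnaseh2a, Cgas and Enpp1, all lower with midostaurin. Over all genes 27.2% did not overlap, 14.0% lower and 13.2% higher, so the count of 3 is near the background. The median log2 fold change of the 10 genes was -0.14, against -0.01 for all genes tested.

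Rnaseh2a measured 59.6, 57.1 and 61.5 CPM in vehicle tumors and 44.3, 41.9 and 47.1 CPM in midostaurin tumors. The highest treated tumor lay below the lowest control. The log2 fold change was -0.41 ± 0.08 (95% interval -0.60 to -0.22, unadjusted p = 0.00132, edgeR adjusted p = 0.0869, DESeq2 adjusted p = 0.00884). Leaving out any 1 tumor gave -0.45 to -0.36, with edgeR adjusted p of 0.166 to 0.249. Rnaseh2b measured 22.1, 18.9 and 16.3 CPM and then 17.3, 13.4 and 16.3 CPM, and Rnaseh2c 16.3, 12.2 and 15.3 CPM and then 14.0, 11.7 and 14.6 CPM. Both overlapped between the groups, at -0.28 ± 0.16 (adjusted p = 0.365) and -0.11 ± 0.16 (adjusted p = 0.738).

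Cgas measured 25.7, 25.4 and 25.1 CPM in vehicle tumors, a spread of 0.328 CPM (SD), and 23.1, 16.5 and 21.8 CPM in midostaurin tumors. Midostaurin tumor 3 was the lowest. The log2 fold change of -0.30 ± 0.14 did not pass (adjusted p = 0.292), and without that tumor it was -0.16. Enpp1 measured 6.79, 3.43 and 3.79 CPM and then 1.37, 2.98 and 3.14 CPM. Its groups lay close together apart from vehicle tumor 1 and midostaurin tumor 2, and the fold change of -0.90 ± 0.40 (95% interval -1.85 to 0.06) did not pass (adjusted p = 0.274, and 0.174 by DESeq2); it was -0.52 without vehicle tumor 1.

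Tmem173 measured 52.9, 48.3 and 52.0 CPM in vehicle tumors and 45.4, 86.9 and 51.3 CPM in midostaurin tumors. Midostaurin tumor 3 alone lay above the controls: the log2 fold change was 0.26 ± 0.23 (adjusted p = 0.565) and, without that tumor, -0.06. The same tumor had a summed neutrophil marker level (6 genes) of 659.6 CPM, against 12.9 to 28.6 CPM in the other 5, and the part of that in its Tmem173 level was not tested. Samhd1 measured 241.9, 202.8 and 187.9 CPM and then 297.1, 229.2 and 237.0 CPM, with overlap at 0.28 ± 0.14 (adjusted p = 0.319; 0.14 without midostaurin tumor 2). Irf3 measured 57.6, 61.0 and 68.2 CPM and then 52.7, 52.5 and 59.8 CPM (-0.17 ± 0.10, adjusted p = 0.370). Tbk1 measured 51.4, 53.0 and 48.7 CPM and then 55.2, 59.6 and 49.9 CPM (0.11 ± 0.09, adjusted p = 0.517). Trex1 differed by 0.20 ± 0.47 (95% interval -0.90 to 1.31, adjusted p = 0.845), and by -0.03 with Atrip summed.

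Markers of cell types in the tumors were set beside the treatment. All 9 macrophage markers were below 0 on the log2 scale and 0 of 9 passed the test; their summed level was 929.4 to 1325 CPM in vehicle tumors and 340.3 to 820.6 CPM in midostaurin tumors, with no overlap. The 7 mitochondrially encoded mRNAs, a sign of RNA quality, summed to 18771 to 26375 CPM and 10456 to 22256 CPM. None of these genes passed either. T cell markers (18.1 to 29.3 CPM and 15.4 to 34.2 CPM) and fibroblast markers (232.3 to 1175 CPM and 300.5 to 648.7 CPM) overlapped between the groups. Of the 5 fibroblast markers 4 were above 0 and 0 passed. Among them Dcn did not overlap, at 41.3 to 98.2 and 103.5 to 218.4 CPM, as was so for 27.2% of all genes. The fibroblast markers other than Lum were also expressed in the cultured line, as given above, so those do not mark host cells alone. The 8 epithelial markers summed to 184.8 to 398.1 CPM and 432.9 to 692.9 CPM, without overlap, although 4 of the 6 tested were below 0. Most of that sum came from Krt20 alone, at 259.3 ± 106.5 and 536.5 ± 131.9 CPM (mean ± SD, n = 3 each). B cell markers (3 genes) summed to 0.763 to 1.78 CPM and 0.248 to 0.595 CPM, without overlap. The cell libraries lay at 0.399 to 0.462 CPM with DMSO and 0.284 to 0.465 CPM with midostaurin, near the midostaurin tumors and below the vehicle tumors. The part of these markers in the values of the 10 genes was not tested.

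Whether the tumor and the cell responses differ was tested as an interaction over all 12 libraries. Of the 9 genes with an estimate 0 passed, as against 0.00589% of all 16965 genes, and 0 of the 9 had an unadjusted p under 0.05, against 6.08%. DESeq2 called 0 of the 9 as well, and 0.352% of all genes. The smallest p was that of Rnaseh2a, with a difference (tumor response less cell response) of -0.49 ± 0.31 (95% interval -1.18 to 0.21, edgeR adjusted p = 0.890). This fit does not pair the cell libraries by number. With the number as a block in cells its adjusted p was much lower and still did not pass, as given at the end. For Trex1 the interval ran from -1.53 to 1.70, and for Enpp1 no difference could be estimated because the cells had 0 counts.

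Genes around the 10 in the same pathways were followed in 7 lists. In cells 0 genes of any list passed (edgeR). The smallest p in each list belonged to genes such as Traf3, a ubiquitin ligase of the interferon pathway, at 50.6 ± 0.178 CPM with DMSO and 48.2 ± 1.11 CPM with midostaurin (log2 fold change -0.07 ± 0.07, adjusted p = 1.00). In tumors, too, 0 genes of any list passed with edgeR, and DESeq2 called 10 of the 94 list genes with an adjusted p (10.6%), 5 in each direction, near its 8.31% of all genes. In the lists below, single genes are named by a small p.

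Of the 22 STING and TBK1 partners tested in tumors, 9 were above 0 and 13 below, with a median of -0.09. Tollip, an adaptor that stabilises STING, measured 73.0 ± 7.56 CPM in vehicle and 104.8 ± 1.76 CPM in midostaurin tumors (0.53 ± 0.09, edgeR adjusted p = 0.0841, DESeq2 adjusted p = 0.000507). Parp1, which binds DNA breaks and makes poly(ADP-ribose), measured 149.6 ± 21.2 and 93.1 ± 8.65 CPM (-0.68 ± 0.13, adjusted p = 0.0848 and 0.00035). Of the 11 genes tested that move or break down cGAMP and its products, 4 were above 0 and 7 below, with a median of -0.08; above 0 were 8 of 12 without midostaurin tumor 2 and 6 of 11 without vehicle tumor 1. Lrrc8d, a subunit of volume-regulated anion channels, measured 35.3 ± 2.3 and 63.8 ± 12.7 CPM (0.86 ± 0.15, adjusted p = 0.0841 and 6.17e-05). Slc19a1, the reduced folate carrier that also carries cyclic dinucleotides, measured 34.8 ± 2.41 and 22.8 ± 2.17 CPM (-0.60 ± 0.11, adjusted p = 0.0841 and 0.00151). The groups did not overlap for any of these 4 genes, which were named for their small p, nor for 27.2% of all genes.

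Of the 20 other nucleases tested in tumors, 6 were above 0 and 14 below, with a median of -0.22. Xrn1, a cytoplasmic RNA exonuclease, measured 40.5 ± 2.17 and 52.4 ± 2.3 CPM (edgeR adjusted p = 0.0921 and 0.0166 by DESeq2). Pld4, an endolysosomal exonuclease of phagocytes, measured 75.5 ± 8.95 and 35.8 ± 11.7 CPM (-1.07 ± 0.24, adjusted p = 0.102 and 0.000269 by DESeq2). Of the 12 RNA sensors and endosomal TLR genes, 6 were above and 6 below 0. Tlr7, an endosomal RNA receptor, measured 15.9 ± 4.02 and 7.49 ± 2.25 CPM (adjusted p = 0.119 and 0.00316 by DESeq2), and Ifih1, which encodes the RNA sensor MDA5, 37.5 ± 4.92 and 50.6 ± 5.49 CPM (adjusted p = 0.141). Pld4 and Tlr7 lay at 0.812 and 4.53 CPM on average in DMSO cells, and the summed macrophage markers were lower in the same tumors, as given above; their part in these values was not tested.

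All 16 tested genes known to be induced downstream of STING were above 0 in tumors, with a median of 0.43, where 47.9% of all genes tested were above 0 and the median was -0.01. None of the 16 passed with edgeR or DESeq2. With 1 tumor left out, an alternative added after seeing the data, 12 to 16 of the 16 were above 0; the median was 0.25 without midostaurin tumor 2 and 0.27 without vehicle tumor 3, and 0.42 to 0.61 without another tumor. Oasl1, an interferon-induced gene, measured 41.8 ± 4.13 and 49.7 ± 0.793 CPM (adjusted p = 0.189). Nfkbia, which encodes the NF-kB inhibitor IkB-alpha, measured 90.0 ± 21.5 and 264.1 ± 251.8 CPM (adjusted p = 0.233), with 554.7 CPM in midostaurin tumor 3 and 110.9 and 126.7 CPM in the other treated tumors. Il6, the interleukin-6 gene, reached 28.5 CPM in midostaurin tumor 3 and lay at 0.510 and 0.687 CPM in the other treated tumors. Neutrophil markers were highest in midostaurin tumor 3 and macrophage markers lower with midostaurin, as given above, and their part in this list was not tested. Ifnb1, the interferon-beta gene, measured at most 0.279 CPM in any library. Of 7 genes of the type I interferon receptor and its signal, 6 were above 0 (4 without midostaurin tumor 3), with a median of 0.32 (0.15 without midostaurin tumor 2), and 0 passed. Tyk2, a kinase of the receptor's signal, measured 48.4 ± 3.51 and 60.1 ± 3.95 CPM (edgeR adjusted p = 0.135). Of 8 proliferation genes, 7 were below 0, with a median of -0.21 (-0.11 without midostaurin tumor 3 and -0.08 without vehicle tumor 1), and 0 passed; Tyms, which encodes thymidylate synthase, measured 55.2 ± 5.86 and 41.2 ± 4.74 CPM (adjusted p = 0.144).

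**Figure D5:**
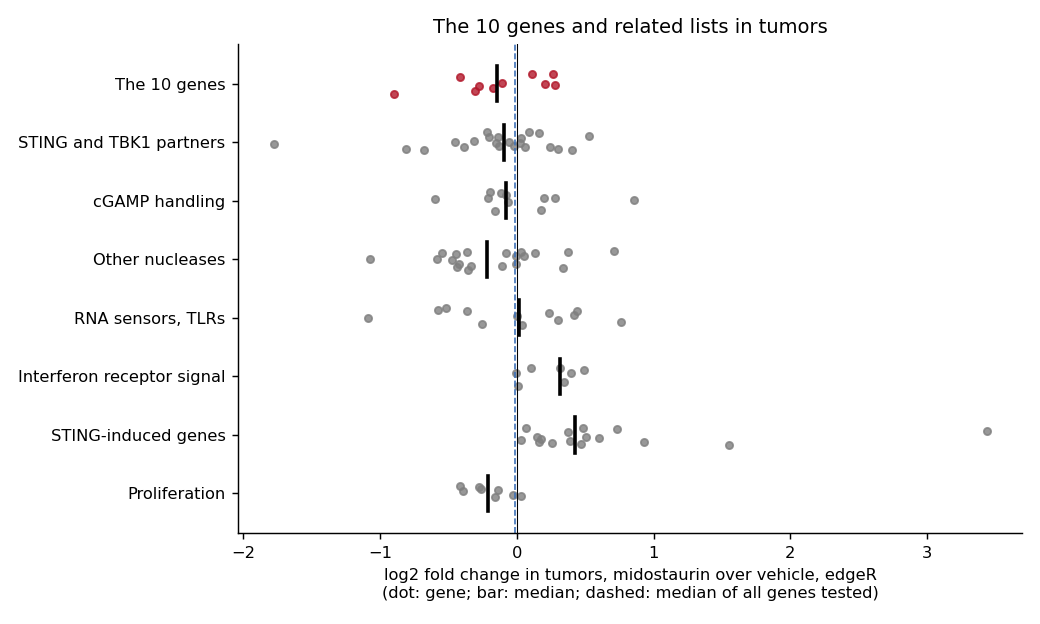
Log2 fold change (edgeR) in midostaurin over vehicle tumors of the 10 genes and of the tested genes of 7 related lists, 1 dot per gene, with the list's median as a bar and the median of all genes tested as a dashed line. All 16 dots of the genes induced downstream of STING lie above 0 (12 to 16 with 1 tumor left out), and no dot in the picture passed the adjusted threshold.

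Between vehicle tumors and DMSO cells the lists were called at shares near or below the 44.2% of all genes, so their counts are a description and no result about the lists. Some genes called higher, among them Cxcl9, Unc93b1, Nt5e and Entpd1, had too few counts in cells to be tested there. Like Enpp1 they passed the count filter through the tumors alone, so their calls add nothing to their levels. Of the genes induced downstream of STING 5 of 16 were higher and 0 lower; Mx1 measured 0.0544 to 0.329 CPM in cells and 14.8 to 21.5 CPM in tumors, and the chemokine gene Cxcl9 had 0 counts in cells and 43.1 ± 28.0 CPM in tumors. Of the RNA sensor and TLR genes 4 of 12 were higher and 1 lower, led by Unc93b1, which carries TLRs to endosomes, at 0.0824 ± 0.0519 and 86.6 ± 18.7 CPM. Of the interferon receptor genes 2 of 7 were higher, among them Ifnar2, and 0 lower. Of the STING and TBK1 partners 4 of 22 were higher and 6 lower, with Trim56, a ubiquitin ligase of the STING pathway, at 178.9 ± 10.3 and 107.8 ± 14.1 CPM (-0.73 ± 0.10, adjusted p = 0.000323).

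Of the other nucleases 5 of 20 were higher in vehicle tumors than in DMSO cells and 3 lower. Dnase2a, the lysosomal DNase, measured 53.2 ± 16.1 CPM in cells and 17.2 ± 0.815 CPM in tumors (-1.62 ± 0.23, adjusted p = 0.000321), and Pld4 0.812 ± 0.343 and 75.5 ± 8.95 CPM (adjusted p = 7.81e-06). Of the cGAMP-handling genes 3 of 12 were higher and 1 lower. Nt5e and Entpd1, ectoenzymes that act on extracellular nucleotides as ENPP1 does, measured 0 and 0.0356 CPM in cells and 8.56 ± 1.13 and 20.7 ± 3.78 CPM in tumors. Slc46a1, the proton-coupled folate transporter, measured 9.28 ± 1.60 and 3.75 ± 0.388 CPM (-1.31 ± 0.20, adjusted p = 0.000592). Of the 8 proliferation genes 0 were called. The macrophage, T cell and endothelial markers given above differ between these groups, and their part in the lists was not tested.

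The genes whose level followed Trex1, Tmem173 and Cgas most closely were ranked by Pearson's r of log2(CPM + 0.5) over the 12 libraries, centred within cells and within tumors, among about 10077 genes of at least 5 CPM. For Cgas they were Asf1b, Recql4, Dnmt1, Chtf18 and Rdh14, at r of 0.982 to 0.971. In cells the libraries share the split between number 1 and the others, which enters each r. For Tmem173 they were Nlrp3, Btg2, Cdc42se1, Tnip1 and Slc11a1, at 0.939 to 0.922, and midostaurin tumor 3 enters each of these as its highest Tmem173 value. For Trex1 they included Dhx35, Atp5c1, Ift22 and Gys1, at 0.877 to 0.836, and the division of reads with Atrip enters here. These values describe the libraries and were not tested.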

How the data were processed

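The authors deposited counts, whole numbers per gene, in a table of cells and a table of tumors with 55335 genes each. Per the submitters' processing notes the authors used FastQC 0.11.2, Bowtie2 2.3.4, RSEM and mm10; the annotation, the strand setting and any rounding of RSEM's estimates are not given in the sources used here. Per the labels' protocols, RNA was poly(A)-selected and libraries were directional. Totals were 34787389 to 38144039 counts in cells and 33399701 to 48109497 in tumors. The labels number the midostaurin tumors 1 to 3 and the table columns 2 to 4; the column numbered 4 matches no label and is called by that number.

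Counts were tested with edgeR 4.0.16 (R 4.3.3; filterByExpr, TMM, quasi-likelihood F-test, Benjamini-Hochberg over all genes, threshold 0.05), cells and tumors separately, and all 12 libraries in 1 fit for the interaction and for vehicle tumors against DMSO cells. Intervals are 95%. CPM were scaled by 1 TMM over the 12 libraries. DESeq2 1.42.0, library totals, no filter, summed overlapping genes, a prior count of 2, left-out libraries and the replicate number as a block were alternatives. The fits were run on simulated data with changes larger than those of the 10 genes with midostaurin, so that run does not bear on small changes. Positions come from a GENCODE annotation of mm10. The 10 genes and the lists were chosen with earlier results of these data known. Named genes are the 10, overlapping neighbours, up to 4 called genes per list (otherwise the 2 smallest p), and the 5 closest to Trex1, Tmem173 and Cgas; Ifnb1 and the genes given as markers were named besides. Of the genes the rule names, 2 are not reported here.

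Replicate numbers are shared between control and midostaurin libraries. Across 14538 genes, cell libraries of the same number deviated together from their group means, with correlations of 0.82, 0.56 and 0.56. Between numbers 2 and 3 the correlations were 0.44 and 0.41, and between number 1 and another number -0.64 to -0.62. By the data, not by the labels, the numbers thus pair the cell libraries, clearly for number 1 and by a smaller margin for 2 and 3. In tumors the shared numbers 2 and 3 gave 0.10 and -0.18.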

Additional observations from a re-analysis of the deposited data

How the results depend on the processing

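The number of the 10 genes called was 0 in cells and for the difference under every alternative run, and leaving out 1 library gave 0 to 0 in each. In tumors it was 0, or 1 by DESeq2, and 0 to 0 with 1 library left out. Between vehicle tumors and DMSO cells it was 6 (44.2% of all genes), or 7 by DESeq2 (40.1% of all genes). It was 8 without both cell libraries numbered 1, and 6 to 8 with 1 library left out. The 8 without DMSO library 1 added Cgas (0.88, edgeR adjusted p = 0.0204) and Rnaseh2a (0.83, adjusted p = 0.00889). The shares of all genes called with libraries left out are not given here, so these gains cannot be read as particular to the 10 genes.

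With the replicate number as a block 0 of the 9 genes tested were called in cells, where 0.0550% of all genes were. In tumors over the shared numbers 2 and 3 it was 0 of the 10 and 0 of all genes. For the difference with the block in cells it was 0 of the 9 with an estimate, and the smallest edgeR adjusted p was 0.0909 for Rnaseh2a (-0.48). The share of all genes called in that fit is not given here. The block changed no other call.

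Values near 0 changed sign. Samhd1 in cells was -0.0055 with library totals and -0.0015 with no filter. Trex1 summed with Atrip was -0.032 in tumors and -0.13 for the difference. With 1 library left out, the log2 values in cells ran from -0.29 to 0.49 for Trex1, -0.109 to 0.085 for Tmem173, -0.28 to 0.36 for Cgas, -0.083 to 0.171 for Tbk1, -0.036 to 0.035 for Irf3, -0.20 to 0.22 for Samhd1, -0.22 to 0.33 for Rnaseh2a, -0.15 to 0.40 for Rnaseh2b and -0.011 to 0.226 for Rnaseh2c. In tumors they ran from -0.18 to 0.53 for Trex1 and -0.060 to 0.429 for Tmem173, for the difference from -0.30 to 0.48 for Trex1, -0.056 to 0.458 for Tmem173 and -0.067 to 0.187 for Tbk1, and in tumors against cells from -0.194 to 0.0055 for Rnaseh2c. The cause was not tested. Trex1 (24 to 80 counts in cells) and Enpp1 (54 to 268 in tumors) have the lowest depth of the 10 genes.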
